A study of Drosophila melanogaster with 14 samples.

Results

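HA and dCTCF antibodies were compared as separate readouts of the same chromatin protein, separately in flies of each dCTCF genotype. All peaks called with either antibody were taken, 2598 of the 8279 peaks in the 6 deposited lists, and the other 5681 were CP190 peaks. In the line with genotype dCTCFΔ705-733 (the deletion line) the HA list held 623 peaks and the dCTCF-antibody list 648. In the dCTCF wild-type line they held 627 and 700. HA chromatin was recovered with an antibody labelled as from mouse and was set against a mouse preimmune library, whereas the dCTCF antibody was labelled as from rat and was set against a rat preimmune library. Each antibody had 2 replicate libraries per genotype, giving 8 libraries, and the 2 preimmune libraries came from flies whose genotype is labelled wt. All libraries are labelled as the Oregon-R strain and came from whole adults aged 2 to 3 days, with 2 g of flies as starting material. They therefore hold chromatin of pooled animals and of all their cell types. The labels do not give the sex of the flies, the position of the HA tag or how the tagged protein was introduced.

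dCTCF is the Drosophila homologue of CTCF, a zinc-finger protein that binds DNA at insulators and domain boundaries. It is known in flies above all for the boundaries of the bithorax complex, the homeotic genes that set the identity of posterior segments. CP190 is a cofactor found on chromatin together with several insulator proteins. A tag antibody and an antibody against the protein itself see different epitopes and may bind different other proteins, so places found with both rest on separate reagents and, here, on separate preimmune controls.

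Each list combines both replicates of a group, so that no value below has a spread between replicates and no test between groups was possible. The files hold no read counts, so sequencing depth is unknown. Brackets give 95% intervals, computed across peaks, for counting error alone. They are Wilson intervals for shares, Newcombe intervals for differences of shares, and order-statistic intervals for medians. Fold enrichment is the value the authors gave each peak relative to its preimmune control, and serves only to rank peaks within a list (place 1 is the strongest). The largest global irreproducible discovery rate (IDR, which is lower the better a peak repeats between 2 sets of calls) was 0.00998 in the deletion HA list and between 0.0493 and 0.0499 in the other 3 HA and dCTCF-antibody lists. In both CP190 lists it was 0.00999 or less. Positions are 1-based and are given as chromosome arm, start and end of the Drosophila melanogaster Release 6 (dm6) assembly, to which the scaffold names point, and genes are those that contain or flank the summit.

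The first comparison asked how much of each list the other antibody recovered. In the deletion line 489 of 623 HA peaks (78.5%, 75.1 to 81.5) shared at least 1 bp with a peak of the dCTCF antibody, and 493 of 648 dCTCF-antibody peaks (76.1%, 72.6 to 79.2) overlapped an HA peak. In wild type the counts were 531 of 627 HA peaks (84.7%, 81.7 to 87.3) and 528 of 700 dCTCF-antibody peaks (75.4%, 72.1 to 78.5). Without a partner were 134 HA and 155 dCTCF-antibody peaks in the deletion line, and 96 HA and 172 dCTCF-antibody peaks in wild type. The smallest overlap within a pair spanned 235 bp in the deletion line and 236 bp in wild type. The nearest misses were 426 bp (HA) and 303 bp (dCTCF antibody) from a peak of the other list in the deletion line, and 300 bp and 267 bp in wild type. The median unpaired peak lay much farther away, at 55998 bp for deletion HA, 52946 bp for deletion dCTCF antibody, 56871.5 bp for wild-type HA and 34293.5 bp for wild-type dCTCF antibody. The HA medians cover 132 of 134 peaks in the deletion line and 94 of 96 in wild type. The rest lay on sequences without a dCTCF-antibody peak. A peak of the other antibody within 5000 bp was found for 12 of the 134 HA and 12 of the 155 dCTCF-antibody peaks without partner in the deletion line, and for 10 of 96 and 37 of 172 in wild type.

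Peaks without a partner were weak ones in 3 of the 4 lists and, apart from 8 peaks, in the last. Each list was divided by fold enrichment into 10 bins of about equal size, bin 1 being the strongest. In bins 1 to 6 of the deletion HA list, the deletion dCTCF-antibody list and the wild-type HA list, 100% of the peaks had a partner, and the first peak without one stood at place 394 of 623, 416 of 648 and 384 of 627. From there the share dropped steeply. In bin 10, 8 of 63 deletion HA peaks (12.7%, 6.58 to 23.1) and 4 of 65 deletion dCTCF-antibody peaks (6.15%, 2.42 to 14.8) had a partner. In wild type 15 of 63 HA peaks (23.8%, 15.0 to 35.6) and 4 of 69 dCTCF-antibody peaks (5.80%, 2.28 to 14.0) of that bin did. Median fold enrichment was 5.96 at unpaired and 66.1 at paired HA peaks of the deletion line, and 2.43 and 14.3 in wild type. For the dCTCF antibody it was 2.24 at unpaired and 12.4 at paired peaks of the deletion line, and 2.25 and 15.98 in wild type.

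**Figure D1:**
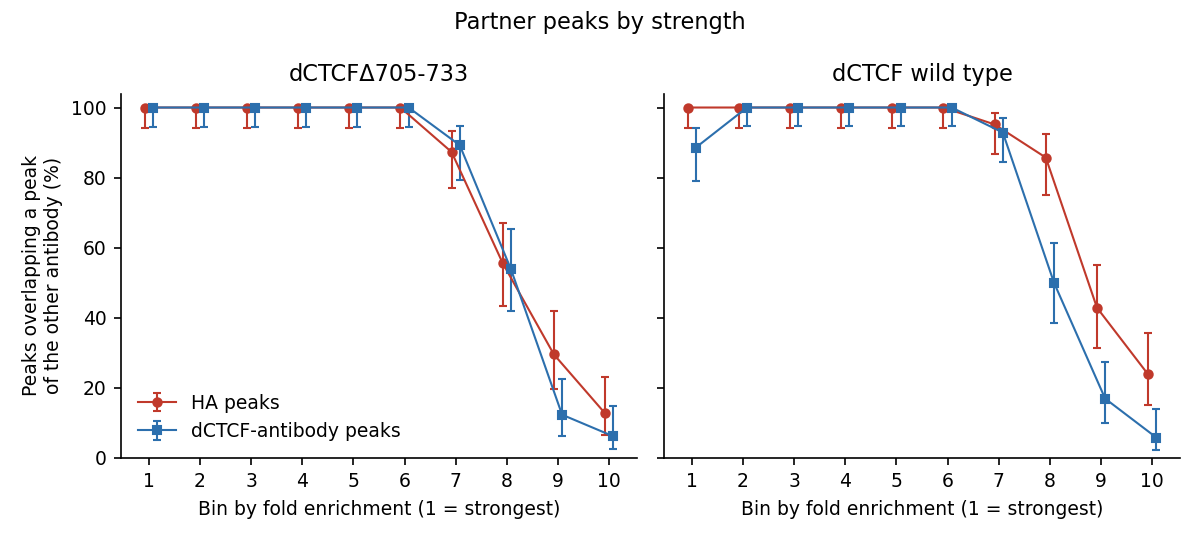
Share of peaks (%) that overlap a peak of the other antibody of the same genotype, by bin of each list from strongest (1) to weakest (10), for HA (circles) and the dCTCF antibody (squares). Bars are 95% Wilson intervals, and 3 of the 4 lists stay at 100% through bin 6, whereas the wild-type dCTCF-antibody list starts at 88.6%.

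The wild-type dCTCF-antibody list departed from this order at its top. In its bin 1, 62 of 70 peaks (88.6%, 79.0 to 94.1) overlapped an HA peak and 8 did not, and bins 2 to 6 held no unpaired peak. The 8 held places 1, 3, 6, 7, 9, 11, 17 and 28 of 700, with 85.4- to 198-fold enrichment, and the nearest wild-type HA peak was 11516 bp away or farther. Place 1 (2L 14705272 to 14707522, 198-fold) lay between osp and CG15282. Place 3 (3L 2850591 to 2853065, 161-fold) lay inside Tet, which encodes a dioxygenase that acts on methylated nucleic acids. Place 6 (3L 5869248 to 5871211, 146-fold) lay between vn, a ligand of the EGF receptor, and CG5568. Place 7 (3L 10898013 to 10900379, 141-fold) lay between Aps and lncRNA:CR45248. The remaining 4, named after their values were seen, lay inside otp, a homeodomain factor (2R 20883931 to 20885469), between Sp1, a zinc-finger factor, and CG1354 (X 9777697 to 9779508), between Obp56h and the Toll-family receptor gene Toll-7 (2R 19824930 to 19826978), and in RpS21, a ribosomal protein gene (2L 2855063 to 2858449). All 8 overlapped a deletion-line HA peak, at places between 1 and 54 of 623, but the share of the whole list that does so was not counted. Of the 8, 4 overlapped a wild-type CP190 peak, against 61 of 62 paired peaks of bin 1 and 60.7% of the whole list.

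Wild-type HA peaks repeated less well at the top of their list than just below it. Among the 12 strongest the global IDR had a median of 0.00862 and reached 0.0326, at the strongest peak, whereas its median was 0.00300 between the strongest 10% and the strongest 50%. Over the whole of bin 1 it reached 0.0466 in the wild-type HA list and 0.0135 in the wild-type dCTCF-antibody list. For the dCTCF antibody in wild type the same medians were 0.00745 and 0.00638. In the deletion line they were 0.00375 and 0.00332 for the dCTCF antibody, in the same direction, and 0.000250 and 0.000288 for HA, in the opposite one. The part of the IDR in the absence of the 8 HA peaks was not tested. Leaving out bin 1 of the wild-type dCTCF-antibody list, an alternative added after the data were seen, gave a share with an HA peak of 74.0% in place of 75.4%.

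Where both antibodies gave a peak, they placed it at nearly the same base. Each HA peak was paired with the overlapping dCTCF-antibody peak of nearest summit, the position of highest enrichment. In the 489 deletion pairs the summits were a median of 9 bp apart (7 to 10), and 479 pairs (97.96%, 96.3 to 98.9) had summits within 50 bp of each other. In the 531 wild-type pairs the median was 10 bp (9 to 12), and 484 pairs (91.1%, 88.4 to 93.3) were within 50 bp. The signed offset, HA minus dCTCF antibody, had a median of 0 in both genotypes.

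Each list also gives a second summit for every peak, from the second set of calls, which measures how far a summit moves within 1 antibody. At the deletion pairs the 2 summits of the same antibody were a median of 5 bp apart for HA and 8 bp for the dCTCF antibody. At the wild-type pairs they were 9 bp apart for either antibody. Over all pairs, the median distance between antibodies thus lay within 5 bp of the median within either antibody. It grew as peaks weakened. In the deletion line it was 5 bp at pairs in bin 1 of the HA list and 28.5 bp in bin 10 (62 and 8 pairs), and in wild type 8 bp and 94 bp (62 and 15 pairs). Within-antibody distances grew as well, in wild type to 54 bp for HA and 35 bp for the dCTCF antibody in bin 10.

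**Figure D2:**
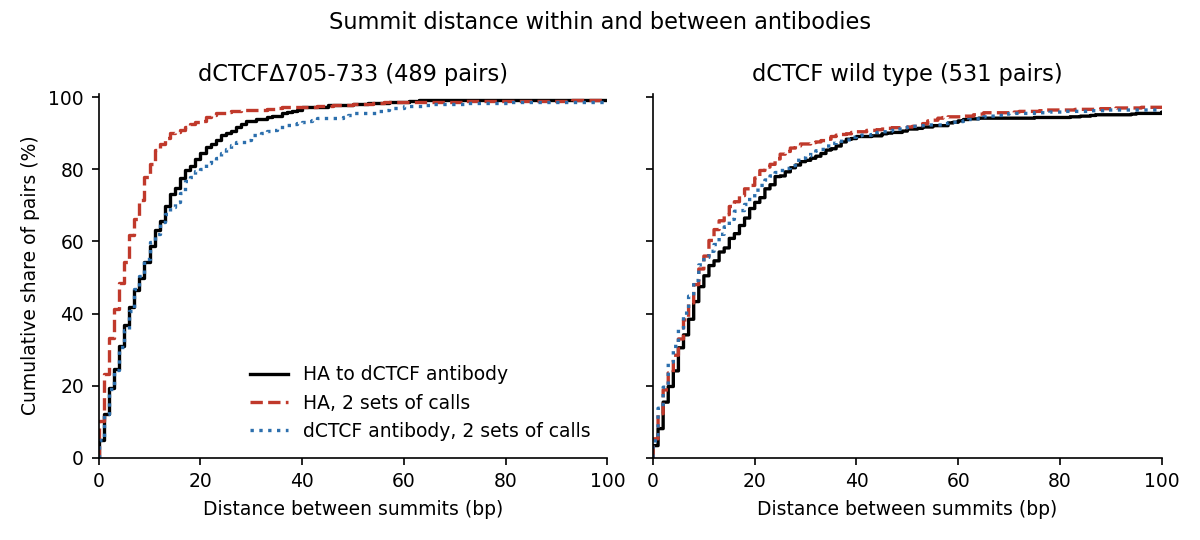
Cumulative share of pairs (%) by distance between summits (bp), from HA to dCTCF antibody (solid) and between the 2 sets of calls of HA (dashed) and of the dCTCF antibody (dotted) at the same pairs. The axis ends at 100 bp, and 2 deletion pairs and 18 wild-type pairs had antibody summits more than 200 bp apart.

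Pairs with distant summits were few. Only 2 of the 489 deletion pairs and 18 of the 531 wild-type pairs were more than 200 bp apart, and 15 of those 18 stood in bins 9 and 10 of the HA list. The farthest deletion pair, chosen after its values were seen, lay at the chorion genes of 3L, which encode eggshell proteins and are known to be amplified in follicle cells. There 2 HA peaks (3L 8714533 to 8727848, place 121, and 3L 8740963 to 8751381, place 102) overlapped a single dCTCF-antibody peak of 36529 bp. Its summit was 6 bp from the first HA summit and 30284 bp from the second. Among deletion pairs with a single partner on each side on the chromosome arms, the largest signed distances, HA minus dCTCF antibody, were −181 bp, between lncRNA:CR44554 and trn (3L 13113358 to 13114585), and −135 bp, between eEF2, the translation elongation factor, and nolo (2L 21683078 to 21684165). The largest in wild type were 3728 bp, inside CG34454 (3L 228548 to 233959), and −2182 bp, between lncRNA:CR44526 and SrpRbeta next to the chorion genes (3L 8710305 to 8714102). These 4 held places 503 to 567 in the HA list.

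Within 50 kb of the 4 chorion genes Cp18, Cp15, Cp19 and Cp16 the dCTCF antibody gave many weak peaks, and HA in wild type gave weak peaks there too. HA gave 2 peaks in the deletion line, both paired, and the dCTCF antibody gave 11, of which 10 had no HA partner (2.08- to 3.55-fold enrichment). In wild type HA gave 8, of which 1 was unpaired (2.22-fold), and the dCTCF antibody gave 14, of which 6 were unpaired (2.46- to 3.72-fold). Over whole lists 21.5% (deletion HA), 23.9% (deletion dCTCF antibody), 15.3% (wild-type HA) and 24.6% (wild-type dCTCF antibody) of peaks were unpaired. The deletion HA list held no peak below 3.01-fold anywhere, whereas the other lists reached down to between 1.86- and 2.02-fold. The part of this limit in the counts was not tested. Leaving the region out turned the direction of none of the 8 differences by chromosome or in CP190 given further on.

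Strength was then compared by place, since fold enrichment is not on a common scale between lists. Over the pairs, fold enrichment with HA and with the dCTCF antibody had a Spearman rank correlation of 0.966 in the deletion line (489 pairs) and 0.936 in wild type (531 pairs). These are descriptions, as the pairs share their libraries. On −log10 p-values, which both sets of calls carry, the rank correlation between antibodies was 0.972 in the deletion line and 0.939 in wild type, whereas that between the 2 sets of calls of 1 antibody at the same pairs was 0.999 (HA) and 0.996 (dCTCF antibody) in the deletion line and 0.994 and 0.995 in wild type. Peaks had to repeat between the sets to enter a list, so the values within an antibody are of peaks chosen for it. The places of a pair, as a percent of list length, differed by a median of 3.91 percentage points in the deletion line and 5.06 in wild type. Of the 50 strongest pairs by HA and the 50 strongest by the dCTCF antibody, 40 were shared in the deletion line and 34 in wild type. Widths followed each other less closely than strength, with a rank correlation of 0.813 in the deletion line and 0.697 in wild type.

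The strongest pairs of the deletion line stood at the top of both lists. The pair in Tet (3L 2849795 to 2854375) held HA place 1 and dCTCF-antibody place 2, with the HA summit 5 bp to the left. The pair between Sp1 and CG1354 (X 9777187 to 9779613) held places 2 and 3, that between vn and CG5568 (3L 5868625 to 5871375) place 4 in both lists, and that between CG32633 and Tpst, a tyrosylprotein sulfotransferase (X 13561524 to 13565581), places 6 and 1. Their summits were within 5 bp of each other, and each carried a CP190 peak, as did 56 of the 62 HA peaks in bin 1 of that list. In wild type the pair next to Tpst (X 13563022 to 13564563) came first, with HA place 1 and dCTCF-antibody place 4 and summits 3 bp apart. It was followed by pairs between Pvf1, a PDGF- and VEGF-related ligand, and htk (X 18843243 to 18844365, places 3 and 5), near the actin gene Act5C inside lncRNA:CR45668 (X 5882494 to 5883868, places 7 and 8), and between the kinase gene dco and Sox100B (3R 31059835 to 31061902, places 9 and 2). These 4 also carried a CP190 peak, as did 59 of the 62 HA peaks in bin 1 of the wild-type list.

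A few pairs parted in strength, and the widest differences on the chromosome arms are given here. HA was the weaker in the deletion line inside shep, an RNA-binding protein gene (3L 5275447 to 5276380, HA place 560 of 623, dCTCF-antibody place 429 of 648), and next to trn (places 545 and 394). The dCTCF antibody was the weaker inside tna (3L 10862931 to 10863498, HA place 459, dCTCF-antibody place 619) and inside zip, the non-muscle myosin heavy chain gene (2R 25010833 to 25012772, places 160 and 277). In wild type the dCTCF antibody was the weaker inside Pdp1, a clock transcription factor gene (3L 7836659 to 7838519, places 41 and 204), and between CG17734 and CG5214 (3R 11242902 to 11244750, places 80 and 197). The 2 wild-type pairs in which HA was weakest relative to the dCTCF antibody were not of this kind. Inside brwl (2L 9568691 to 9569769, places 602 and 119) and between CkIIalpha-i3 and CG13896 (3L 710500 to 710873, places 572 and 71), the HA summit lay at 1568 and −1446 bp from the summit of a dCTCF-antibody peak that overlapped another HA peak too. With such shared partners left out, the rank correlation in wild type was 0.968 over 512 pairs.

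**Figure D3:**
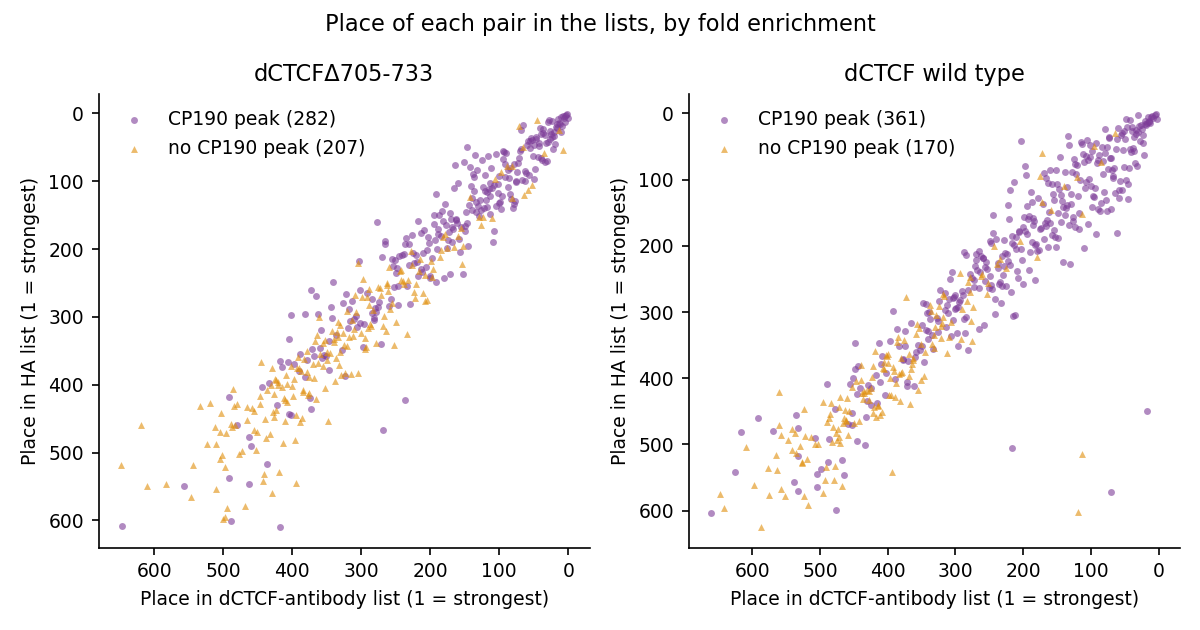
Place of each pair in the HA list (vertical) against its place in the dCTCF-antibody list (horizontal), 1 being the strongest by fold enrichment, with pairs at a CP190 peak as circles and others as triangles. Points follow the diagonal in both genotypes, and pairs with CP190 gather at the strong end.

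Peak width separated the antibodies in opposite ways in the 2 genotypes. HA peaks of the deletion line had a median width of 1388 bp and their dCTCF-antibody partners 903 bp, and the median difference within pairs was 427 bp (362 to 522). HA was the wider in 422 of 489 pairs (86.3%), and the dCTCF-antibody peak lay wholly inside the HA peak in 359. In wild type HA peaks had a median of 821 bp and their partners 1024 bp, with a median difference of −119 bp (−151 to −78). There HA was the narrower in 351 of 531 pairs (66.1%), and it lay inside the dCTCF-antibody peak in 236. In the strongest 50% of each list the median differences were 839.5 bp in the deletion line and −250.0 bp in wild type.

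CP190 peaks of the same genotype were used as a readout that did not enter the pairing. Of all peaks in a list, 50.7% (deletion HA), 52.6% (deletion dCTCF antibody), 65.9% (wild-type HA) and 60.7% (wild-type dCTCF antibody) overlapped a CP190 peak. At HA peaks of the deletion line the share was 34 of 134 (25.4%, 18.8 to 33.4) without a partner and 282 of 489 (57.7%, 53.2 to 62.0) with one. At its dCTCF-antibody peaks it was 59 of 155 (38.1%, 30.8 to 45.9) without and 282 of 493 (57.2%, 52.8 to 61.5) with a partner. In wild type 52 of 96 unpaired HA peaks (54.2%, 44.2 to 63.8) and 361 of 531 paired ones (68.0%, 63.9 to 71.8) had CP190, as did 64 of 172 unpaired (37.2%, 30.3 to 44.6) and 361 of 528 paired (68.4%, 64.3 to 72.2) dCTCF-antibody peaks. The shares depend on how closely peaks must coincide. With summits at most 200 bp apart, for partners and CP190 alike, CP190 was at 18.6% of unpaired dCTCF-antibody peaks in the deletion line and 20.3% in wild type. With an overlap of at least 50% of both peaks it was at 14.2% of unpaired and 27.9% of paired HA peaks in the deletion line, and at 16.3% of unpaired dCTCF-antibody peaks in wild type. CP190 and HA enrichment were both computed against the mouse preimmune library, unlike that of the dCTCF antibody.

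Paired peaks were the stronger ones, and among paired peaks CP190 went with strength. Among paired peaks of bin 1 it was present at 56 of 62 (deletion HA), 57 of 64 (deletion dCTCF antibody), 59 of 62 (wild-type HA) and 61 of 62 (wild-type dCTCF antibody). In bin 7 it was present at 12 of 55, 14 of 58, 20 of 59 and 25 of 65 paired peaks of the same 4 lists. At unpaired peaks it went from 5 of 28 in bin 8 to 18 of 55 in bin 10 for deletion HA. For the deletion dCTCF antibody it went from 8 of 30 to 23 of 61, and for wild-type HA from 3 of 9 to 30 of 48. Only for the wild-type dCTCF antibody was the share lower in bin 10, at 23 of 65 against 15 of 35. The comparison of unpaired with paired peaks was therefore repeated in the weakest 40% of each list. This limit was chosen because it holds every unpaired peak except the 8 at the top of the wild-type dCTCF-antibody list. There, with an overlap of 1 bp or more, the lower share at unpaired peaks was no longer seen. For deletion HA it was 25.4% without and 21.6% with a partner (difference 3.82 percentage points, −6.81 to 14.1), and for the deletion dCTCF antibody 38.1% and 22.9% (15.2, 3.71 to 25.7). For wild-type HA it was 54.2% without and 32.3% with a partner (21.9, 9.33 to 33.7), and for the wild-type dCTCF antibody 36.6% and 34.5% (2.10, −9.31 to 13.2). The wild-type HA difference was 12.1 points (0.316 to 23.9) when the CP190 summit had to lie within 200 bp and 10.3 points (−2.73 to 22.9) with every list limited to a global IDR of 0.01. The deletion dCTCF-antibody difference was 3.16 points (−6.69 to 12.2) with the CP190 summit within 200 bp and 12.4 points (−1.23 to 25.8) at that IDR. For the wild-type dCTCF antibody the same settings gave −5.99 points (−16.3 to 3.95) and −1.39 points (−20.1 to 19.9), so that unpaired peaks were again the lower. For deletion HA they gave 8.71 points (−0.831 to 17.9) and 1.18 points (−9.60 to 11.5).

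**Figure D4:**
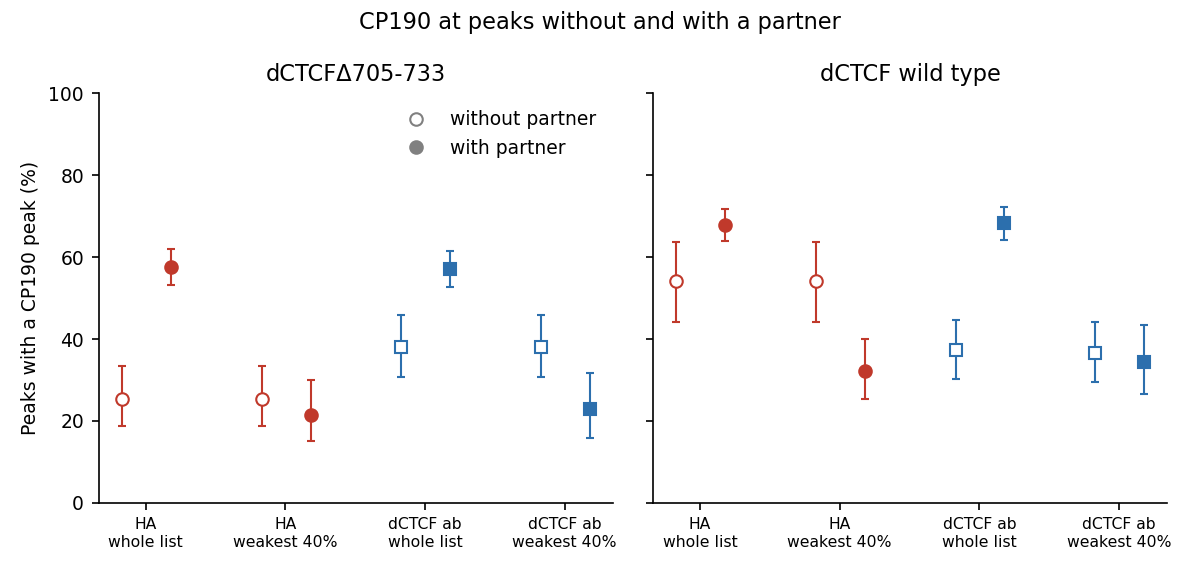
Share of peaks (%) that overlap a CP190 peak of the same genotype, for peaks without (open) and with (filled) a partner of the other antibody, in whole lists and in the weakest 40% of each list, with 95% Wilson intervals. Unpaired peaks lie lower in whole lists, and at 54.2% against 32.3% in the weakest 40% of the wild-type HA list they lie higher.

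CP190 summits lay farther from the dCTCF summit than the antibodies did from each other. At the 282 deletion pairs with CP190, the CP190 summit was a median of 32.5 bp from the HA summit (27 to 38) and 32.5 bp from the dCTCF-antibody summit (25 to 39), whereas the HA and dCTCF-antibody summits were 7 bp apart (6 to 8). At the 361 wild-type pairs with CP190 these medians were 20 bp (17 to 23), 18 bp (15 to 22) and 9 bp (8 to 11). The intervals of the distances to CP190 from either antibody overlapped in both genotypes. This is no separate result, because the HA and dCTCF-antibody summits lay so close to each other. The same CP190 peak, that of nearest summit to HA, was also used for both distances.

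Unpaired dCTCF-antibody peaks were scarce on the X chromosome. In the deletion line 13 of 111 X peaks (11.7%, 6.97 to 19.01) lacked an HA partner, against 142 of 534 on the autosomal arms (26.6%, 23.0 to 30.5), a difference of −14.9 percentage points (−21.0 to −6.75). In wild type 5 of 105 X peaks (4.76%, 2.05 to 10.7) lacked one, against 167 of 593 (28.2%, 24.7 to 31.9), a difference of −23.4 points (−28.0 to −16.6). For HA the intervals of the difference included 0. In the deletion line 36 of 133 X peaks (27.1%) and 96 of 485 autosomal peaks (19.8%) were unpaired (7.27 points, −0.530 to 16.04), and in wild type 17 of 119 (14.3%) and 77 of 504 (15.3%) were (−0.992, −7.18 to 6.95). Within the weakest 40% of the dCTCF-antibody lists the unpaired shares were 33.3% on X and 64.5% on autosomal arms in the deletion line, and 14.3% and 63.5% in wild type. With both lists limited to a global IDR of 0.01 the difference was −13.4 points (−17.5 to −7.14) in the deletion line and −2.96 points (−7.27 to 4.02) in wild type. In wild type 5 of 93 X peaks and 35 of 420 autosomal peaks were unpaired at that limit. The part of the IDR in the X difference was not tested. With lists of equal length the wild-type difference was −15.2 points.

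**Figure D5:**
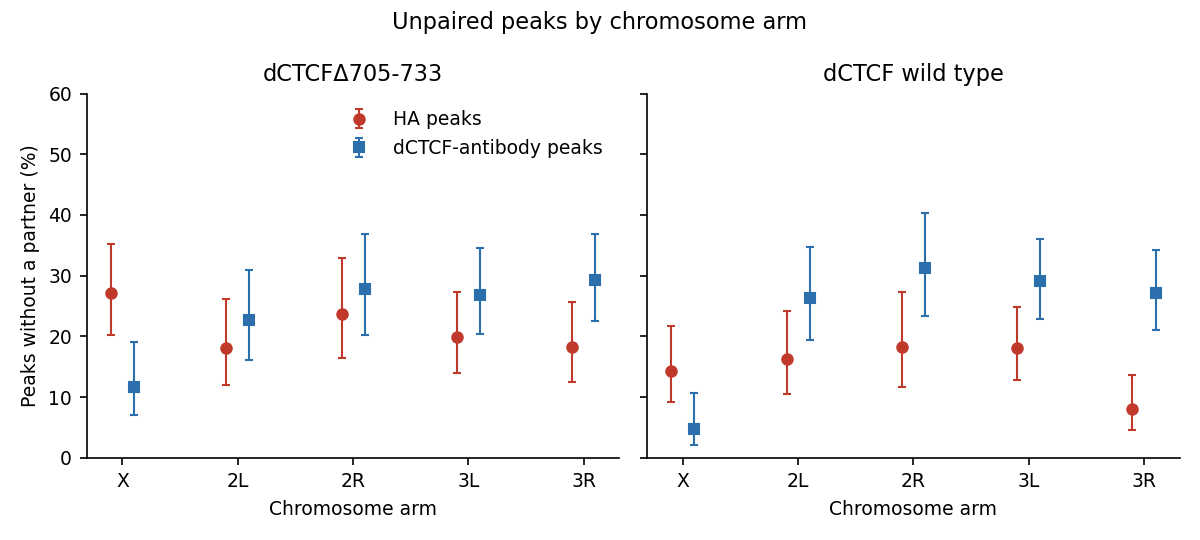
Share of peaks (%) without a partner of the other antibody on each large chromosome arm, for HA (circles) and the dCTCF antibody (squares), with 95% Wilson intervals. On X the dCTCF antibody has 11.7% and 4.76% unpaired peaks, below its values on all 4 autosomal arms shown.

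Unpaired peaks were also described by their form and position. Unpaired HA peaks of the deletion line had a median width of 446.5 bp, against 1388 bp with a partner, and unpaired dCTCF-antibody peaks 810 bp, against 895 bp. In wild type the widths were 530.5 bp and 821 bp for HA, and 587.5 bp and 1003 bp for the dCTCF antibody. The 2 sets of calls placed the summits of unpaired peaks less exactly, at a median of 12 bp (deletion HA), 100 bp (deletion dCTCF antibody), 44 bp (wild-type HA) and 94 bp (wild-type dCTCF antibody) from each other. Of all peaks on the arms, 31.6% (deletion HA), 34.4% (deletion dCTCF antibody), 38.0% (wild-type HA) and 36.4% (wild-type dCTCF antibody) had their summit within 200 bp of either end of a protein-coding gene, against 51.5% and 47.8% of the deletion and wild-type CP190 peaks. At deletion HA peaks this share was 24.2% (17.7 to 32.2) without and 33.5% (29.5 to 37.9) with a partner. In the other 3 lists the intervals of unpaired and paired peaks overlapped more widely, with 34.2% and 34.5% (deletion dCTCF antibody), 40.4% and 37.6% (wild-type HA) and 37.8% and 35.9% (wild-type dCTCF antibody). Within the weakest 40% of each list the shares without and with a partner were 24.2% and 18.6% (deletion HA), 34.2% and 22.1% (deletion dCTCF antibody), 40.4% and 31.6% (wild-type HA) and 37.8% and 30.2% (wild-type dCTCF antibody). All 4 differences there had the opposite direction to that of deletion HA over the whole list, and the intervals of unpaired and paired peaks overlapped in each.

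The strongest unpaired HA peaks on the chromosome arms were of moderate rank. Those of the deletion line lay between sim, a regulator of midline cells, and lncRNA:CR44967 (3R 13078216 to 13078669, place 394, 16.8-fold), between CG9920 and lncRNA:CR46531 (3R 14098474 to 14098966, place 397), between dcma and CG15631 (2L 4726059 to 4726681, place 409) and between lncRNA:CR45731 and the cuticle protein gene Cpr76Ba (3L 19516392 to 19516979, place 410). Of these, the peaks next to sim and dcma overlapped a CP190 peak, at places 192 and 2272 of 3164, and the others did not. In wild type, where the strongest of all lay on an unplaced scaffold (place 384, 6.09-fold), those on the arms lay inside Maf1, a repressor of RNA polymerase III (2R 1521350 to 1523592, place 391, 5.74-fold), inside CG5966 (X 5992174 to 5992513, place 445), inside Eip75B, an ecdysone-induced nuclear receptor gene (3L 18020887 to 18021295, place 456), and between pigeon and drl, a receptor of Wnt5 (2L 19190096 to 19190855, place 472). The strongest unpaired dCTCF-antibody peaks of the deletion line, all on the arms, lay beside the chorion genes (3L 8710288 to 8714143, place 416, 3.55-fold), next to and inside Bmcp, a mitochondrial carrier gene (3L 11719335 to 11720530, place 434, and 3L 11720795 to 11722934, place 440), and inside chic, the profilin gene (2L 5978845 to 5981201, place 435). All of these except the peak beside the chorion genes overlapped a CP190 peak. Of the wild-type HA peaks named here, those inside Maf1 and CG5966 did, at CP190 places 2359 and 601 of 2517. Among all unpaired peaks the CP190 shares were 25.4% (deletion HA), 38.1% (deletion dCTCF antibody) and 54.2% (wild-type HA).

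Off the chromosome arms 4 HA peaks lacked a partner, 2 of 5 in the deletion line and 2 of 4 in wild type. Of the dCTCF-antibody peaks there, 0 of 3 in the deletion line and 0 of 2 in wild type did. Over whole lists the unpaired shares were 21.5% and 15.3% for HA and 23.9% and 24.6% for the dCTCF antibody. So few peaks do not set the antibodies apart. On the mitochondrial sequence HA gave a peak in the deletion line (place 578, 4.50-fold) and in wild type (place 431, 4.31-fold), and neither dCTCF-antibody list held one. The other two lay on an unplaced X scaffold in the deletion line (place 600, 3.83-fold) and on the unplaced scaffold named above in wild type (place 384). A Y scaffold carried 2 pairs in each genotype. HA held in the deletion line places 422 and 467 of 623 there and the dCTCF antibody places 236 and 269 of 648, whereas in wild type HA held places 302 and 341 of 627 and the dCTCF antibody 311 and 340 of 700. A further pair of the deletion line lay on another Y scaffold (HA place 610, dCTCF-antibody place 418). Relative to list length, HA stood behind the dCTCF antibody by 31.3 to 33.4 percentage points at these 3 deletion pairs, more than at any pair on the arms in that line.

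Among the 8 homeotic genes, Abd-B and Antp had paired peaks within 1000 bp in both genotypes, 3 pairs each. Of all 13922 protein-coding genes, 4.79% had a pair within that distance in the deletion line and 5.04% in wild type. The homeotic genes are long, with a median of 30563 bp against 2163 bp over all protein-coding genes, and the part of length in this count was not tested. The strongest at Abd-B held HA place 23 and dCTCF-antibody place 37 in the deletion line, and places 35 and 74 in wild type. At Antp the places were 84 and 87 in the deletion line, and 92 and 82 in wild type. The gene pb had 1 HA peak (place 568) and no dCTCF-antibody peak in the deletion line, and no other homeotic gene had a peak of either antibody. From Ubx to Abd-B, 7 of 9 HA peaks and 7 of 7 dCTCF-antibody peaks were paired in the deletion line, and 7 of 8 HA and 7 of 8 dCTCF-antibody peaks in wild type. Over the whole lists the shares were 78.5% and 76.1% in the deletion line and 84.7% and 75.4% in wild type, so that with so few peaks the region does not stand apart from them. Of the 14 genes listed for insulator proteins 13 were matched by symbol, among them CTCF itself, Cp190, su(Hw) and BEAF-32, and none of the 13 had an HA or dCTCF-antibody peak within 1000 bp in either genotype. Over all protein-coding genes the share with a peak of either antibody was 7.61% in the deletion line and 7.49% in wild type, and a count of 0 among so few genes does not set them apart.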

How the data were processed

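ChIP-seq peak lists of HA, dCTCF antibody and CP190 in whole adult flies were analysed, 1 list per antibody and genotype. Per the submitters' processing notes, the tools were cutadapt, Bowtie2, Picard and deepTools and the builds dm6 and dm3, with no roles given. The peak caller is not given in the sources used here. The lists have 20 columns and no header, in the layout of the IDR tool. In that layout the deposited fold enrichment is a ratio over the preimmune library, the deposited −log10 values are those of p-values, q-values and IDR, the deposited score is a scaled IDR, and positions are given for 2 sets of calls. Intervals and summits are those of the first set. Depth per library is unknown.

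Scaffold names point to Release 6. With its RefSeq gene table, a gene end was within 200 bp of the summit at 47.8% of CP190 peaks in wild type, against 9.80% with positions shifted by 5000 bp. Positions are 1-based. The table holds no strand or sequence, so exons, starts and the planned motif count were not analysed here.

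Peaks were paired within a genotype by an overlap of 1 bp or more, and each HA peak with the dCTCF-antibody peak of nearest summit. Summits were start plus offset. Shares carry 95% Wilson intervals, differences Newcombe intervals and medians order-statistic intervals. In 24 comparisons with bedtools 2.31.1, 24 overlap counts were identical. On a simulated copy of the wild-type HA list with 100 peaks removed, 100 were found without a partner. Alternatives covered strength, IDR, list length, set of calls, overlap and pairing. Named peaks, all on the chromosome arms, were the 4 strongest unpaired peaks per list, the 4 pairs best placed in both lists, the 2 pairs per direction that differed most in place, the 2 with the largest summit distance, and, besides these, peaks at the homeotic and insulator genes. Members, lists and limits were chosen with earlier results of these data known. Python 3.11.15, numpy 2.4.6, pandas 2.3.3, scipy 1.17.1 and matplotlib 3.10.9 were used.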

Additional observations from a re-analysis of the deposited data

Results flagged for a closer look

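The width difference between the antibodies had opposite signs in the 2 genotypes. The median over pairs, HA minus dCTCF antibody, was 427 bp in the deletion line (489 pairs) and −119 bp in wild type (531 pairs). With 1 list per antibody and genotype, the difference between genotypes was not tested. Outlying samples could not be looked for, because each list combines its replicates.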

How the results depend on the processing

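Of 160 values under alternative settings, 118 stayed within their tolerance (the interval of the value, or 0.05 for a rank correlation), 38 moved beyond it and 4 turned sign. None moved with the chromosome arms alone, pairs with a single partner on each side, or ranks by −log10 p. Nor did any without the 3L chorion region or without the strongest 10% of the list whose peaks were counted. Both of these alternatives were added after the data were seen.

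The strongest 50% setting cut the HA, dCTCF-antibody and CP190 lists alike, so partners and CP190 peaks had to stand there too. A peak counted as unpaired under it could have a partner lower in the other list, and in the deletion line all did. With the strongest 50% of each list, the deletion values were 96.5% (HA) and 92.3% (dCTCF antibody) with a partner, 6 bp between summits, 99.7% of pairs within 50 bp, 839.5 bp in width, and CP190 at 49.3% of paired HA, 36.4% of 11 unpaired HA and 16% of 25 unpaired dCTCF-antibody peaks. The wild-type values were 99.4%, 88.9%, 8 bp, 99.4%, −250.0 bp and CP190 at 0% of the 2 unpaired HA peaks (0 to 65.8). With overlap required over at least 50% of both peaks, partners were found for 57.0% (HA) and 54.8% (dCTCF antibody) of deletion peaks and 72.6% and 65.0% of wild-type peaks. CP190 was then at 27.9% of paired and 14.2% of unpaired HA peaks in the deletion line, and in wild type at 56.9% of paired HA, 37.8% of unpaired HA and 16.3% of unpaired dCTCF-antibody peaks. This setting and the summit limit apply to the CP190 overlap as well.

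At a global IDR of 0.01 or less, an HA partner was found for 86.1% of deletion and 92.2% of wild-type dCTCF-antibody peaks. In wild type 94.2% of pairs were within 50 bp, and CP190 was at 43.0% of unpaired HA and 50.0% of unpaired dCTCF-antibody peaks. The X difference of wild-type unpaired peaks was then −2.96 points for the dCTCF antibody and turned to 0.478 for HA, and the CP190 difference in weak wild-type dCTCF-antibody peaks turned to −1.39. With the second set of calls 94.5% of deletion pairs were within 50 bp, the wild-type width difference was −154.5 bp, and the wild-type HA difference on X turned to 0.887. With summits at most 200 bp apart, CP190 was at 50.3% of paired HA and 18.6% of unpaired dCTCF-antibody peaks in the deletion line, and at 37.7% of unpaired HA and 20.3% of unpaired dCTCF-antibody peaks in wild type. With the CP190 summit at most 200 bp away, the difference in weak dCTCF-antibody peaks was 3.16 points in the deletion line and turned to −5.99 in wild type. With lists of equal length, 83.6% of wild-type dCTCF-antibody peaks had a partner and their X difference was −15.2 points. The causes were not tested.

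No paired analysis was possible because each list combines both replicates, and for the same reason no replicate was left out. The planned motif count was not run. Unknown depth limits what a missing partner means, which is not shown to be an absent site.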
